A study of Mus musculus with 9 samples.

Results

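The interstitial matrix and matrix remodelling genes are 36 mouse genes named as a list: 9 glycoproteins, 5 small leucine-rich proteoglycans, 10 collagen chains, 3 elastic fibre genes, 6 proteases or protease inhibitors and 3 genes that fold or cross-link collagen. They were looked up by symbol among the 32686 gene symbols of the 9 single-cell count tables, and the question was which mouse cell type of a glioblastoma xenograft held the transcripts of each. Of the 36 genes, 29 were listed in all 9 tables. Tnc was not listed in P3, Col1a1 not in T101, Col5a1 not in P3 and P3TMZ, Col6a2, Col6a3 and Loxl2 not in T233, and Timp1 not in the normal brain. A gene that a table did not list was treated as missing and not as 0.

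The study profiled mouse cells from patient-derived orthotopic xenografts (PDOXs), in which organoids grown from glioblastoma tissue are implanted into the brain of a nude mouse, so that the tumor cells are human and the tumor microenvironment is mouse. Drop-seq, a droplet method that counts transcripts by unique molecular identifiers (UMIs), was applied to 7 untreated PDOXs (P3, P8, P13, T16, T101, T192 and T233), 1 PDOX given temozolomide (P3TMZ) and 1 normal nude brain (Nu-NB). All hosts were nude mice, in which T cells are strongly reduced, T192 and T233 were grown from tumors of the same patient, and the untreated P3 received the vehicle. Human cells were removed by FACS for P8 and Nu-NB and by magnetic beads for the other 7 samples, and myelin was removed by beads from all of them. Each sample is 1 library, and nothing in the labels tells how many mice went into it.

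The interstitial matrix is the network of fibrillar collagens, proteoglycans and adhesive glycoproteins that lies between cells. In the healthy brain it is sparse, and most fibrillar collagen sits in the meninges and around vessels, where fibroblasts and mural cells (pericytes and smooth muscle) make it. Collagen chains are folded in the endoplasmic reticulum with the help of chaperones, secreted, coated by small leucine-rich proteoglycans that set fibril width, cross-linked by lysyl oxidases, and cut by metalloproteinases that TIMPs inhibit.

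Levels below are given per class of cells, and 3 genes whose levels differed between classes were taken to show the DNA before their start sites: Col3a1, a fibrillar collagen of fibroblast-like and mural-like cells, Bgn, a proteoglycan of mural-like, fibroblast-like and endothelial-like cells, and Postn, a glycoprotein of mural-like and myeloid-like cells. The 100 bases before the RefSeq start (GRCm38.p6, all on the + strand) are chr1:45311438-45311537 for Col3a1, chrX:73483501-73483600 for Bgn and chr3:54361007-54361106 for Postn, and none of the 3 windows overlaps the annotated gene. Capitals mark TATAAA or GGGCGG on either strand.
Col3a1: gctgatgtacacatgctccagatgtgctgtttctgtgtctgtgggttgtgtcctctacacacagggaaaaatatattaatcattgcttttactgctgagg
Bgn: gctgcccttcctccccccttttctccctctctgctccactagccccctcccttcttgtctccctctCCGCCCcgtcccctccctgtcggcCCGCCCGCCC
Postn: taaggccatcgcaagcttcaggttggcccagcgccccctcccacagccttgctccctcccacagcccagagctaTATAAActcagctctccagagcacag
TATAAA occurred in the Postn window, starting 26 bases before the start site, and in 5.56% of the 32851 RefSeq promoter windows of this length. GGGCGG occurred 3 times in the Bgn window, the nearest starting 6 bases before the start site, and in 24.7% of all windows. Of the 28 windows of members, which belong to 24 genes, 1 held TATAAA and 11 held GGGCGG. The third motif searched, TGANTCA, was in 1 member window, that of Col6a1, and in 2.73% of all windows. These matches describe the letters only.

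After filtering, 14618 cells remained, from 722 in P3TMZ to 2770 in P13, with a median of 513 (T101) to 1274.5 (P13) UMIs per cell. Cells were clustered without the 36 genes and without other matrix genes, and the clusters were named from marker lists. The class named was the one in which its own markers were highest for 13 of 13 endothelial, 12 of 14 mural, 18 of 19 fibroblast, 12 of 12 astrocyte, 9 of 10 oligodendrocyte precursor (OPC), 9 of 9 ependymal, 7 of 9 choroid plexus, 9 of 9 neuronal and 13 of 13 myeloid markers. The same markers named the clusters, so these counts follow from the naming and are no independent check of it. Choroid plexus-like cells of the PDOXs also carried myeloid markers, at a summed median of 21196 CPM (776 to 40089 CPM) against 308 CPM in Nu-NB, and up to 11943.5 UMIs per cell at the median, so levels in that class may include transcripts of other cells, whose part was not tested. Class sizes were uneven. Fibroblast-like cells reached 10 cells in P8 (50), T16 (14) and P13 (36) of the PDOXs, and P13 held 616428 UMIs in mural-like cells against 4857 to 83965 in the other PDOXs. Any pair of libraries shared 0 to 11 cell barcodes.

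Fibroblast-like and mural-like cells had the highest level of most of the interstitial matrix genes. By the median level over the PDOXs with at least 10 cells of a class, given as CPM, the UMIs summed over the class and scaled to a total of 1000000, 19 of the 36 genes were highest in fibroblast-like cells, 6 in mural-like, 3 in myeloid-like, 2 each in astrocyte-like, OPC-like and endothelial-like, and 1 each in choroid plexus-like and ependymal-like cells. A count of 0 allowed up to 5.31 to 678 CPM in mural-like cells and 61.0 to 185 CPM in fibroblast-like cells, depending on the library, against 1.09 to 14.8 CPM in myeloid-like cells (3 UMIs, counting error only). The fibroblast median covers 3 PDOXs (P8, T16 and P13) and the mural median 7, so the classes were ranked over unlike sets of libraries. Within these 3 PDOXs, fibroblast-like cells were highest in 3 for Dcn, Lum and Ogn and in 1 for Serpinh1, Loxl2 and Col5a1. The highest class was the same under all 13 alternative settings for 19 genes.

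**Figure D1:**
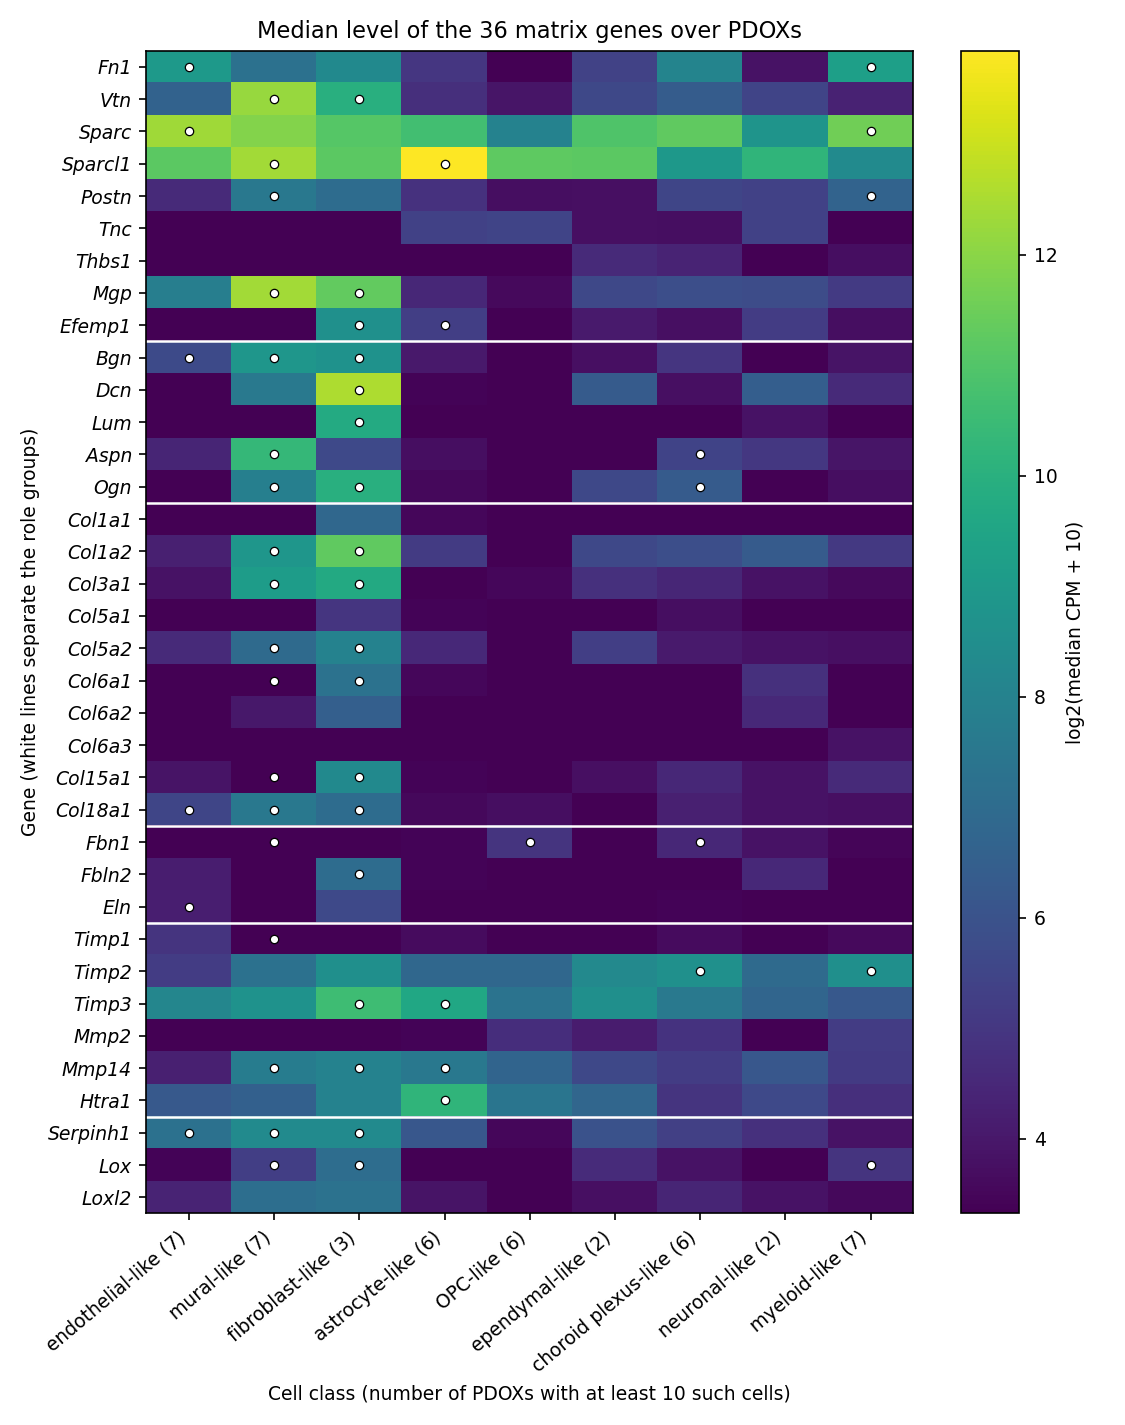
Median level of the 36 genes (vertical axis) in 9 cell classes (horizontal axis, with the number of PDOXs that had at least 10 such cells), as color on a log2(median CPM + 10) scale. White points mark the 57 gene and class pairs with a higher level in that class (edgeR, FDR at most 0.01 and log2 fold change at least 1), and 18 points fall in the mural-like and 18 in the fibroblast-like column.

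In the test across all genes, each class was compared with the mean of the other classes on summed UMIs, with the sample as a block. Of the 36 genes, 28 passed the filter on low counts and were tested. Tnc, Col1a1, Col5a1, Col6a2, Col6a3 and Loxl2 were not listed in every PDOX, and Thbs1 and Mmp2 were under the filter. Mural-like cells were higher for 18 of the 28 (7.52% of all 8463 genes tested), and fibroblast-like cells for 18 of the 28 (3.23% of all genes). The median log2 difference of the 28 was 3.82 in fibroblast-like cells, against -0.32 over all genes, and 2.78 in mural-like cells, against -0.12. Both classes were called for 13 of the 28 (1.35% of all genes). Endothelial-like cells were higher for 6 (14.8% of all genes), astrocyte-like cells for 5 (14.9%), myeloid-like cells for 5 (17.7%), choroid plexus-like cells for 4 (13.7%) and OPC-like cells for 1 (10.5%). In ependymal-like (6.68%) and neuronal-like cells (4.61%) none was called by edgeR or by DESeq2, with 4 and 10 of the 28 at an unadjusted p under 0.05 in either direction. All 28 were called in at least 1 class, against 57.2% of all genes. A gene could pass the filter through the class where it was high. This count, and the counts and medians by class above, therefore carry no weight. The sums of P13 decided part of the mural list: without that PDOX 10 genes were called, and Fbn1, Timp1, Col15a1, Col6a1, Lox, Mmp14, Postn and Sparcl1 were not among them. Without P8, Col6a1, Col15a1, Col18a1, Mmp14 and Serpinh1 were not called in fibroblast-like cells, nor Postn in myeloid-like and Fbn1 in OPC-like cells. The mural call of Col6a1 was also lost without T101 or T233 and could not be tested without P8, and the fibroblast call of Mmp14 was also lost without T233. Fbn1 could not be tested without P13 in mural-like, OPC-like and choroid plexus-like cells. Without T16, Mmp14 was lost in fibroblast-like and mural-like cells, Bgn in endothelial-like and Fbn1 in choroid plexus-like cells. The choroid plexus call of Aspn was lost without T233, P3 or P13, the endothelial call of Col18a1 without P13, and Eln could not be tested without T192 or T233.

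Fibrillar collagens were held by fibroblast-like and mural-like cells. Col1a2, a chain of type I collagen, stood in fibroblast-like cells at 2461 CPM in P8, 800.2 CPM in T16 and 2439 CPM in P13, and in mural-like cells from 148 to 1008 CPM with a median of 448 CPM. The highest mural value, in P13, was above the lowest fibroblast value, in T16, so the classes overlapped across libraries. Against the other classes the log2 difference of Col1a2 was 5.42 ± 0.42 (SE, adjusted p = 8.4e-13) in fibroblast-like and 3.22 ± 0.36 (adjusted p = 5.3e-09) in mural-like cells. Mural-like cells held 52.0% of the 1243 Col1a2 UMIs in named classes of the PDOXs, and fibroblast-like cells 20.2%, but 570 of the 646 mural UMIs came from P13. Such shares leave out unnamed and mixed clusters and doublets, which held 20.6% to 56.1% (median 32.7%) of the UMIs of the 30 genes with at least 100 UMIs in named classes, and over all cells the Col1a2 shares were 32.3% and 12.6%. Without P13 the order turned, with 21.0% in mural-like and 37.3% in fibroblast-like cells, and without P8 the fibroblast share was 12.1%.

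Col3a1, the chain of type III collagen, was at 1566 CPM in P8, 800.2 CPM in T16 and 841 CPM in P13 in fibroblast-like cells. In mural-like cells it was 665 CPM in P8, 98.4 in T192, 851 in P3, 549 in T16 and 1073 in P13, with no UMI in T101 and T233. Mural-like cells of P8, P3, T16 and P13 were thus high and those of T101, T192 and T233, with 13 to 40 cells each, were low or at 0, and Nu-NB, with 15 mural-like cells, had no Col3a1 UMI either. The log2 difference was 5.70 ± 0.50 in fibroblast-like and 5.11 ± 0.40 in mural-like cells (adjusted p = 1.5e-10 and 3e-12).

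The collagens that bind to or accompany these fibrils followed with fewer UMIs. Col5a2, a chain of the type V collagen that starts fibrils, was higher in both mural-like (3.69 ± 0.38) and fibroblast-like cells (3.66 ± 0.59). Col6a1, of the beaded type VI collagen, was higher in fibroblast-like cells (log2 difference 5.64 ± 0.72) on 16 UMIs in P8 and P13, and its mural call (adjusted p = 0.008) rested on 15 UMIs of P13 and 1 of T16. Col15a1 and Col18a1, which lie at basement membranes and carry the precursors of endostatin-like fragments, were called in mural-like and fibroblast-like cells, and Col18a1 also in endothelial-like cells (log2 difference 2.10 ± 0.49). Of the 409 Col15a1 UMIs, 39.6% were in mural-like and 33.7% in myeloid-like cells, although the myeloid level was low (from 3.38 to 28.0 CPM with a median of 13.7 CPM) and did not pass the test. Without P13 these shares were 3.24% and 64.9%.

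The collagen chains outside the test had few UMIs. Col1a1 had 75 UMIs in named classes, of which 36% were in mural-like and 32% in fibroblast-like cells. For Col1a1, 26 of the 27 mural UMIs came from P13 and 19 of the 24 fibroblast UMIs from P8. Col5a1 (71 UMIs) and Col6a3 (104 UMIs) were mostly in mural-like cells (66.2% and 67.3%), and 47 and 67 of these UMIs came from P13. By the median over PDOXs Col6a3 was highest in myeloid-like cells, at 0 to 6.75 CPM, because its mural level was 0 in 4 of the 6 PDOXs that list it. Col6a2 had 31 UMIs.

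The small leucine-rich proteoglycans, which coat collagen fibrils, divided mainly between the same classes. Dcn (decorin) and Lum (lumican) marked fibroblast-like cells. Dcn was at 7849.7 CPM in P8, 6032 CPM in T16 and 4226 CPM in P13 there, and from 0 to 492 CPM with a median of 181 CPM in mural-like cells, so that the lowest fibroblast value was above the highest mural value. Its log2 difference in fibroblast-like cells was 7.71 ± 0.53 (adjusted p = 4.4e-13), and fibroblast-like cells, present in numbers in 3 libraries, held 70.8% of the 1007 UMIs. Lum was at 1098 CPM in P8, 862 CPM in T16 and 547 CPM in P13 in fibroblast-like cells (log2 difference 7.95 ± 0.50), and DESeq2, with an adjusted p of 0.014, did not call it.

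Aspn (asporin) was the mural counterpart. It was from 678 to 2211 CPM with a median of 1279 CPM in mural-like cells, against 40.7, 61.6 and 0 CPM in the fibroblast-like cells of P8, T16 and P13. Mural-like cells were the highest class for Aspn in 7 of 7 PDOXs, with a log2 difference of 6.79 ± 0.38 (adjusted p = 1.9e-17). Bgn (biglycan) was from 197 to 939 CPM with a median of 452 CPM in mural-like cells and 407 CPM in P8, 369 CPM in T16 and 484 CPM in P13 in fibroblast-like cells, levels that overlapped, and it was also called in endothelial-like cells (2.80 ± 0.56). In endothelial-like cells Bgn varied between PDOXs from 0 CPM in T233 to 212 CPM in P3. Ogn (osteoglycin) was higher in fibroblast-like (6.44 ± 0.36), mural-like (3.67 ± 0.38) and choroid plexus-like cells (3.10 ± 0.36). Choroid plexus-like cells held 33.3% of its 399 UMIs, fibroblast-like cells 28.3% and mural-like cells 26.3%.

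**Figure D2:**
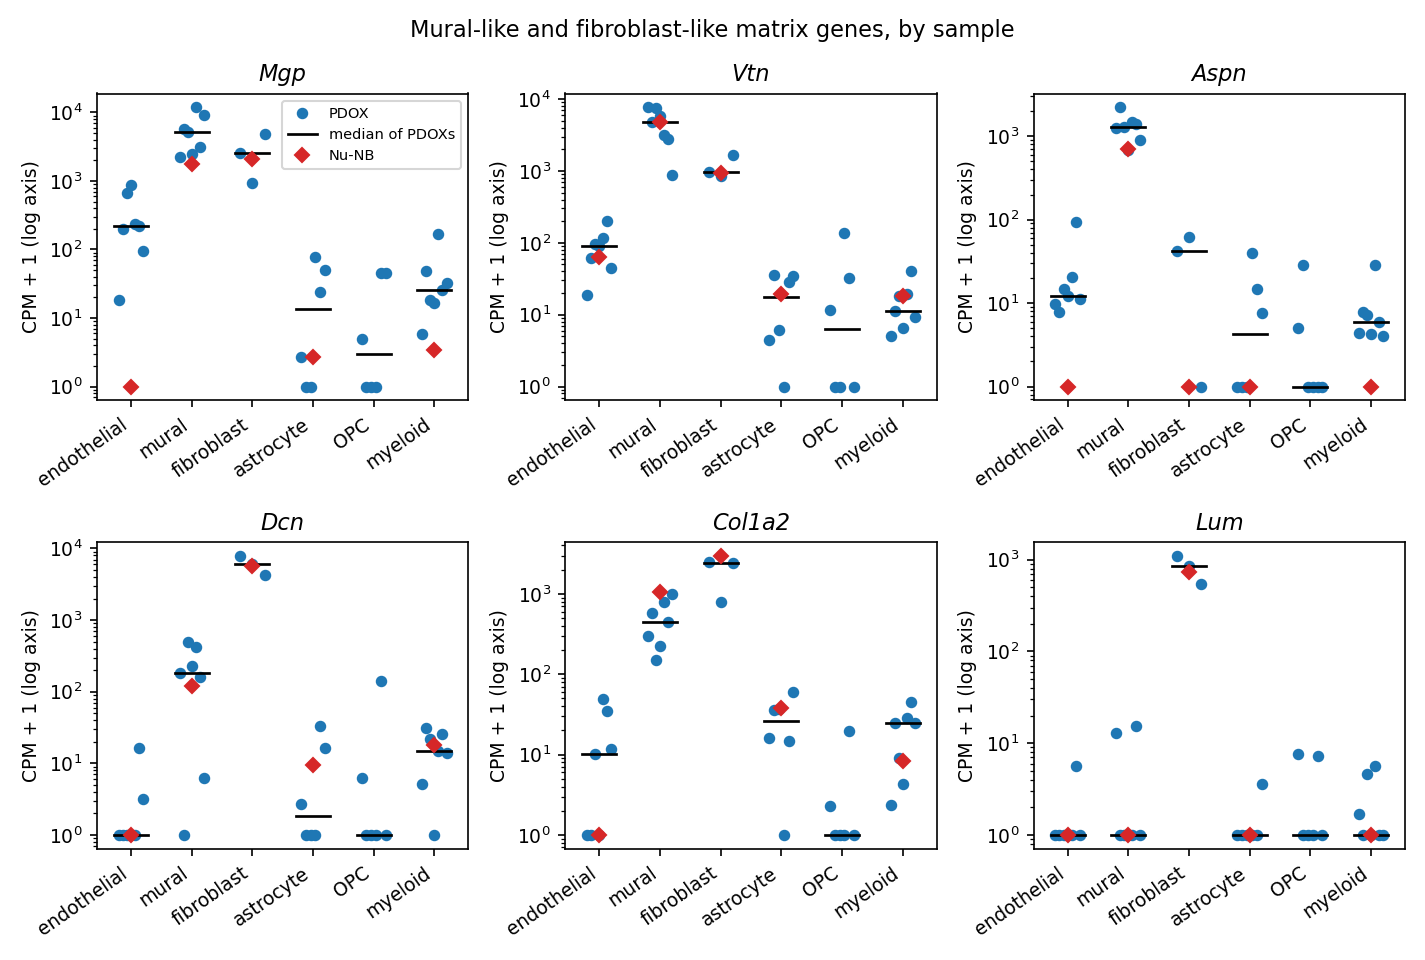
Level of Mgp, Vtn, Aspn, Dcn, Col1a2 and Lum as CPM + 1 on a log axis in 6 cell classes, with 1 point per PDOX that had at least 10 cells of the class, the median over PDOXs as a bar and Nu-NB as a diamond. Aspn is at 678 CPM or more in the mural-like cells of every PDOX, and Dcn is highest in the fibroblast-like cells of P8, T16 and P13.

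Among the glycoproteins, Mgp and Vtn were highest in mural-like cells by the median and were called in both mural-like and fibroblast-like cells. Mgp, matrix Gla protein, an inhibitor of calcification, was 2248 CPM in P8, 5701 in T101, 5264 in T192, 2485 in T233, 11839.8 in P3, 3162 in T16 and 9159 in P13 in mural-like cells. P3 and P13 were the highest, and every PDOX was above the 1775 CPM of Nu-NB. In fibroblast-like cells Mgp was at 2542 CPM in P8, 923 CPM in T16 and 4878 CPM in P13, which overlapped the mural range. The log2 difference from the other classes was 5.49 ± 0.50 in mural-like and 5.19 ± 0.69 in fibroblast-like cells (adjusted p = 1.4e-10 and 1.3e-06).

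Vtn (vitronectin), an integrin ligand that circulates in plasma and that brain pericytes are known to make, was from 867 to 7639.6 CPM with a median of 4770.2 CPM in mural-like cells. P8 and T192 were the highest and P13 was the lowest, below its own fibroblast-like cells (1639.9 CPM), and Nu-NB (4734 CPM) lay within the PDOX range. The log2 difference of Vtn was 5.97 ± 0.43 in mural-like (adjusted p = 4.4e-13) and 3.92 ± 0.57 in fibroblast-like cells (adjusted p = 6e-06), where its level was 976 CPM in P8, 862 CPM in T16 and 1639.9 CPM in P13. The smooth muscle-like subset of mural-like cells, with at least 10 cells in T16, P13 and P3TMZ, had 241, 336 and 661 CPM of Vtn, and the remaining mural-like cells of the same libraries 3308, 887 and 7721 CPM.

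Sparcl1 (hevin), an adhesion-modulating protein that astrocytes are known to release at synapses, was highest in astrocyte-like cells among the classes. In astrocyte-like cells it was from 9268 to 16724 CPM with a median of 14695 CPM, highest of all classes in 6 of 6 PDOXs, with 13746 CPM in Nu-NB. The log2 difference of Sparcl1 was 3.54 ± 0.28 (adjusted p = 1.6e-14). Mural-like cells were also called for it (1.28 ± 0.29, adjusted p = 0.0011), a call lost without P13. Within mural-like cells the order was the reverse of that of Vtn: Sparcl1 was 13672, 16985 and 14949 CPM in the smooth muscle-like cells of T16, P13 and P3TMZ and 3519, 3742 and 2457 CPM in the remaining mural-like cells. The smooth muscle-like value of T16 thus lay within the astrocyte range and that of P13 above it.

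Sparc, a collagen-binding glycoprotein, was abundant in several classes. In endothelial-like cells it was 3638 CPM in P8, 5257 in T101, 4936 in T192, 3210.0 in T233, 11040.2 in P3, 7807 in T16 and 6295 in P13. In myeloid-like cells it was from 1769 to 4736 CPM with a median of 2987 CPM, and there Nu-NB, at 4621 CPM, was near the top of the range. Both classes were called (log2 difference 2.16 ± 0.25 and 1.63 ± 0.26), and together with mural-like cells they held 34.2%, 44.2% and 8.08% of the 54194 UMIs, with a mural share of 1.72% without P13. Barcodes with under 200 detected genes carried Sparc at 2428 CPM in Nu-NB, 1076 in P8, 1739 in T101, 2849 in T192, 2041 in T233, 4067 in P3 and 1411 in T16. In P3 that was above the myeloid level of 3958 CPM and in T101 just below it, and the part of free RNA was not tested.

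Fn1 (fibronectin), which forms fibrils that bind integrins and collagen, was held by myeloid-like and endothelial-like cells. Its myeloid level was 750.3 CPM in P8, 118 in T101, 606 in T192, 596 in T233, 597 in P3, 74.0 in T16 and 198 in P13. T101, T16 and P13 were low and the other 4 were high, and in endothelial-like cells the level was from 253 to 1023 CPM with a median of 500.1 CPM. The log2 difference was 2.59 ± 0.49 (adjusted p = 5.4e-05) in myeloid-like and 2.87 ± 0.49 (adjusted p = 1.3e-05) in endothelial-like cells, and the order of these classes changed between PDOXs, with myeloid-like cells highest in 3 of 7. Barcodes with under 200 detected genes, which may hold free RNA, carried Fn1 at 203 CPM in P8, 107 in T101, 491 in T192, 494 in T233, 475 in P3 and 22.0 in T16, and P13 had 3 such barcodes with no Fn1 UMI. The part of free RNA in the myeloid level was not tested.

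Postn (periostin), which links collagen to integrins, was higher in mural-like (3.03 ± 0.58) and myeloid-like cells (2.46 ± 0.53). Myeloid-like cells held 78.5% of the 1882 UMIs in named classes, and 971 of these came from P8, where the level was 664 CPM against 24.4 to 276 CPM in the other PDOXs. Outside the named classes Postn had 1455 UMIs in unnamed clusters, 321 in left-out doublets and 158 in mixed clusters, and with these cells counted the myeloid share was 38.7%. The unnamed cells of T101 alone held 1174 Postn UMIs, at 3573 CPM, and those of P13 held 259. Without P8 the myeloid call was lost (log2 difference 1.36), and without P13 the mural call was. Barcodes with under 200 detected genes held Postn at 674 CPM in T101, above its myeloid level there, and 169.9 CPM in P8.

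Efemp1 (fibulin-3) was higher in fibroblast-like (6.17 ± 0.51) and astrocyte-like cells (2.61 ± 0.46). Tnc (tenascin-C), an anti-adhesive glycoprotein, had 155 UMIs, 47.7% of them in astrocyte-like and 15.5% in OPC-like cells (8.18% without P8 and 25% without P13), and its level in OPC-like cells was from 0 to 180.5 CPM with a median of 34.6 CPM, a spread that covers the astrocyte values. Thbs1 (thrombospondin-1) had 110 UMIs, of which 42 were in the mural-like cells of P13, with no mural UMI in the other 6 PDOXs, and 42 in myeloid-like cells of 5 PDOXs, where the level was from 0 to 14.5 CPM with a median of 3.27 CPM over the 7 PDOXs. Either class held 38.2% of the Thbs1 UMIs, and without P13 the myeloid share was 67.6% and the mural share 0%. Its highest class by the median was ependymal-like, on 4 UMIs of P13.

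**Figure D3:**
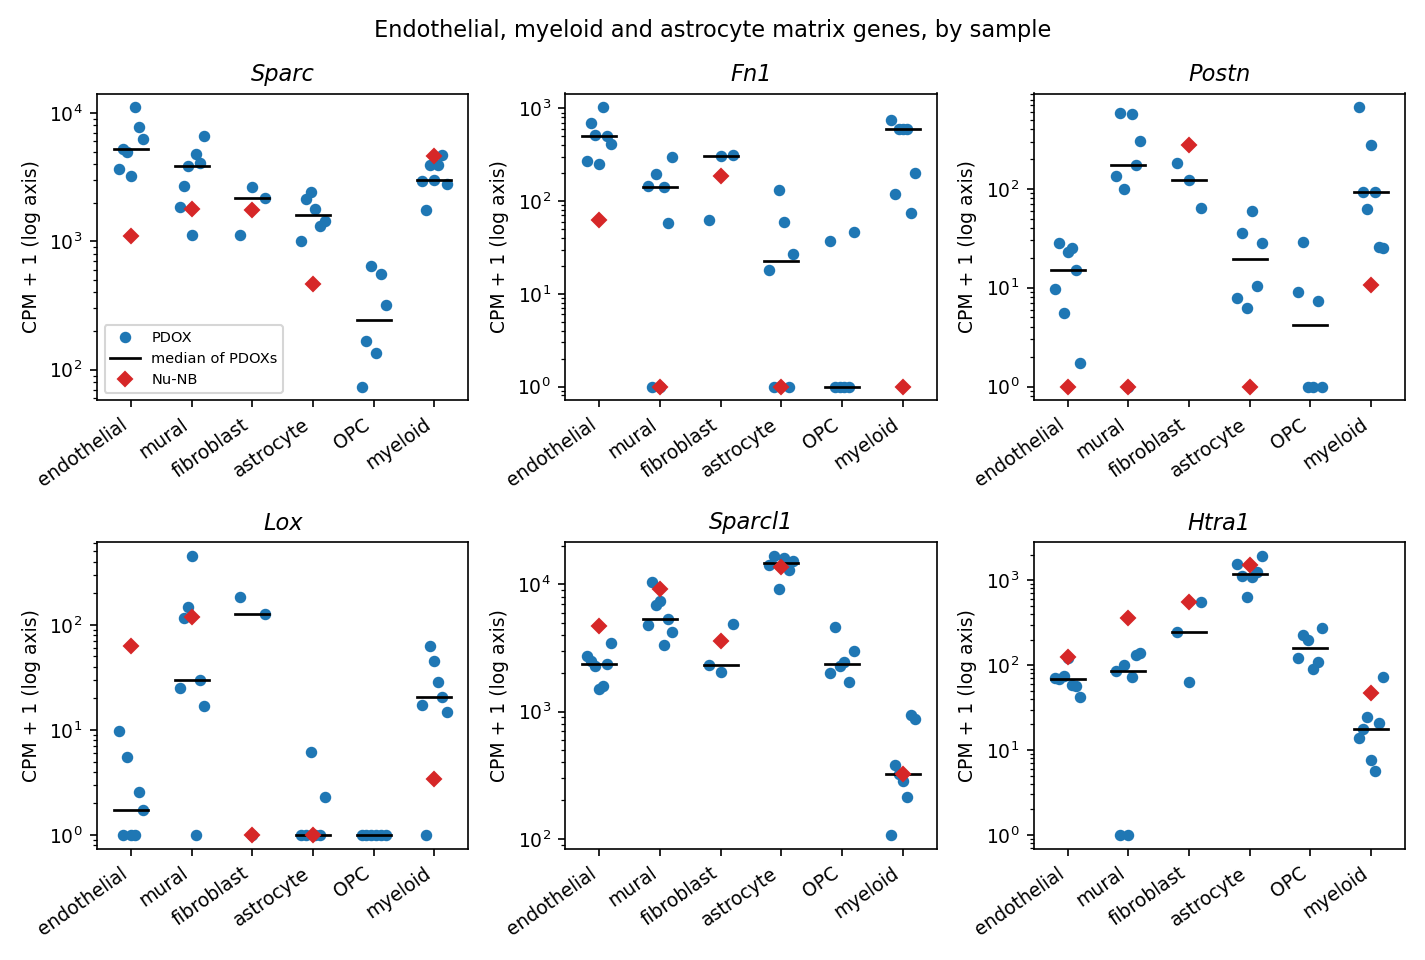
Level of Sparc, Fn1, Postn, Lox, Sparcl1 and Htra1 as CPM + 1 on a log axis in 6 cell classes, with 1 point per PDOX, the median over PDOXs as a bar and Nu-NB as a diamond. Fn1 has no UMI in the myeloid-like cells of Nu-NB and 74.0 to 750.3 CPM in those of the PDOXs, while Sparcl1 and Htra1 are highest in astrocyte-like cells.

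The elastic fibre genes had few UMIs. Fbln2 (fibulin-2) was higher in fibroblast-like cells (6.42 ± 0.69), at 407 CPM in P8, 123 CPM in T16 and 105 CPM in P13. Eln (elastin) had its highest median in fibroblast-like cells (40.7 CPM, on 4 UMIs), where the log2 difference of 4.12 ± 1.14 missed the threshold (adjusted p = 0.015). It was called higher in endothelial-like cells (2.89 ± 0.60), where it was 77.2 CPM in T192 and 154 CPM in T233, the libraries from the same patient, and at most 14.0 CPM in the other 5 PDOXs. Fbn1 (fibrillin-1), the core of microfibrils, was called in OPC-like (3.25 ± 0.67), mural-like and choroid plexus-like cells on 102 UMIs. In OPC-like cells 24 of its 29 UMIs were from P8, and in mural-like cells all 42 were from P13.

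The proteases and their inhibitors were called in astrocyte-like, fibroblast-like, mural-like, myeloid-like and choroid plexus-like cells. Htra1, a secreted serine protease, was from 625 to 1926 CPM with a median of 1187 CPM in astrocyte-like cells, with 1507 CPM in Nu-NB, and these cells held 79.6% of its 3597 UMIs (log2 difference 4.53 ± 0.24, adjusted p = 1.6e-26). Timp3, a TIMP that binds to matrix, was at 1586 CPM in P8, 923 CPM in T16 and 1535 CPM in P13 in fibroblast-like cells and from 596 to 1202 CPM with a median of 767 CPM in astrocyte-like cells, and both were called. Mmp14, a membrane-bound metalloproteinase that activates the gelatinase made by Mmp2, was called in astrocyte-like (1.81 ± 0.29), fibroblast-like (1.77 ± 0.46) and mural-like cells (1.36 ± 0.32).

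Timp2, which inhibits metalloproteinases and also helps Mmp14 to activate Mmp2, was held mostly by myeloid-like cells. It was from 237 to 543 CPM with a median of 365 CPM there and from 360.0 to 526 CPM with a median of 380.5 CPM in choroid plexus-like cells, which overlapped, and both classes were called (log2 difference 1.60 ± 0.21 and 1.58 ± 0.22). Myeloid-like cells held 67.4% of its 4055 UMIs. Timp1 had 248 UMIs, 46.0% of them in mural-like cells (10.5% without P13, which gave 106), and 35.5% in endothelial-like cells, where it was from 0 to 62.8 CPM with a median of 20.3 CPM. Mmp2 was low in all classes. Its level in myeloid-like cells was from 13.2 to 32.4 CPM with a median of 27.0 CPM, and these cells held 62.2% of its 283 UMIs.

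Of the genes that fold and cross-link collagen, Serpinh1, the collagen chaperone HSP47, was higher in mural-like (3.27 ± 0.27), endothelial-like (2.62 ± 0.26) and fibroblast-like cells (2.40 ± 0.44). Its median in fibroblast-like cells (315 CPM; 407 CPM in P8, 61.6 CPM in T16 and 315 CPM in P13) and in mural-like cells (314 CPM) were almost equal, and endothelial-like cells held 51.2% of its 1868 UMIs. Endothelial-like cells of P3 (531 CPM) and P13 (443 CPM) were high and those of T233 (77.0 CPM) low.

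Lox, which oxidizes lysines of collagen and elastin, was higher in fibroblast-like (5.07 ± 0.73), mural-like (2.54 ± 0.61) and myeloid-like cells (2.10 ± 0.48). Myeloid-like cells held 78.6% of its 336 UMIs, and 172 of these were from T192 (62.4 CPM) and 40 from T233 (43.9 CPM), with no UMI in T101. Lox in barcodes with under 200 detected genes was at 70.8 CPM in T192, above its myeloid level there, and the part of free RNA was not tested. Loxl2, a relative of Lox, was not listed in T233 and not tested. Of its 624 UMIs 82.1% were in mural-like cells (42.1% without P13), 480 of them in P13, where the level was 849 CPM against 96.7 to 274 CPM in the other 5 PDOXs.

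**Figure D4:**
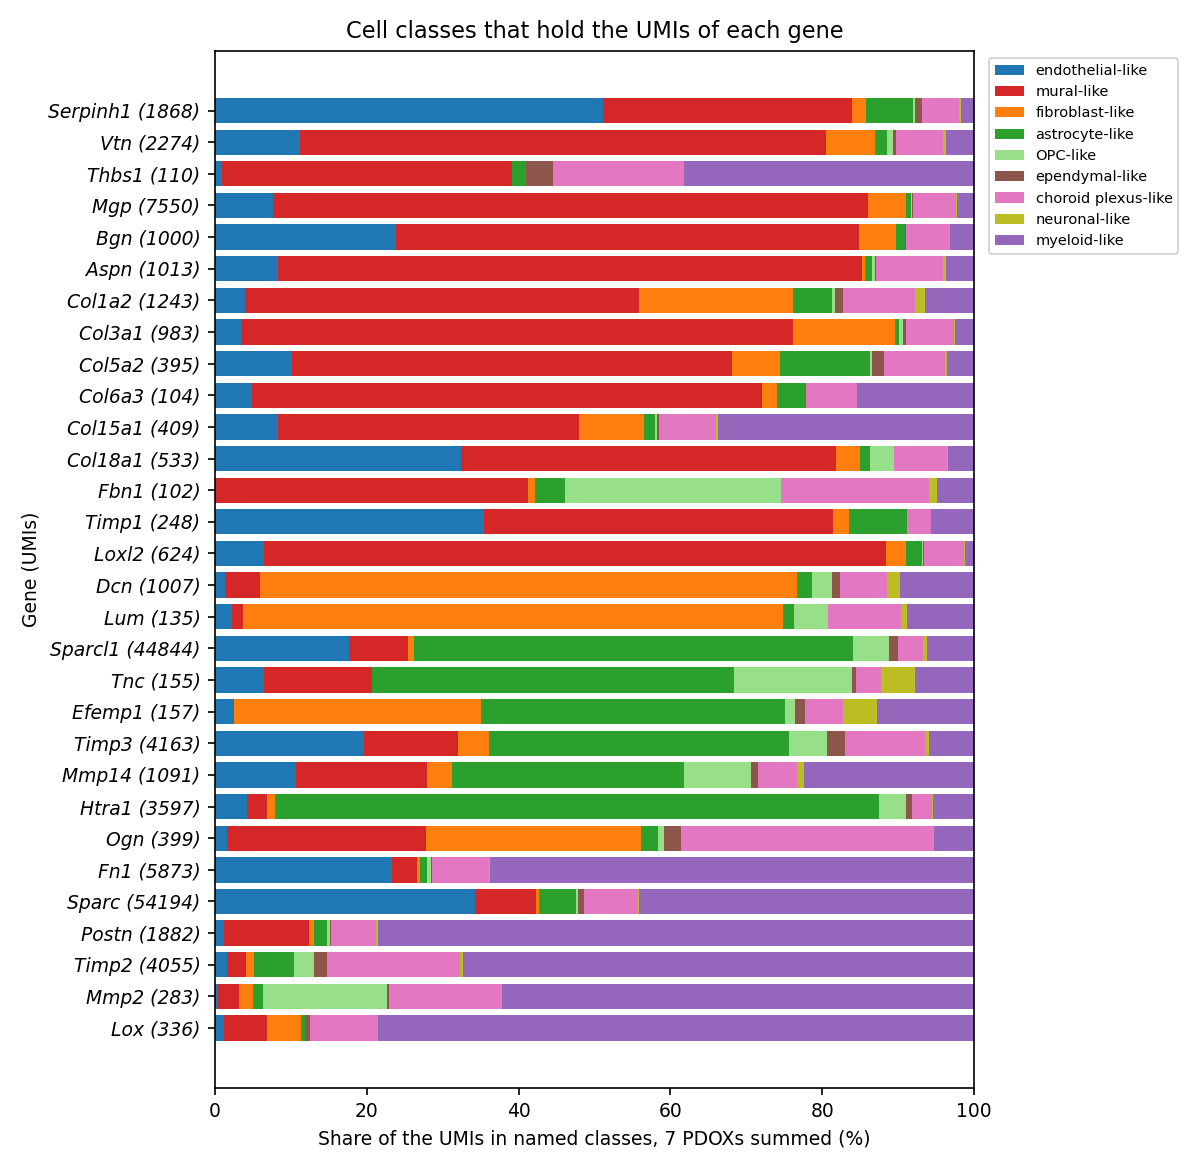
Share of each gene's UMIs in named classes (horizontal axis, percent, summed over the 7 PDOXs) by cell class, for the 30 genes with at least 100 UMIs (number in parentheses). Shares follow class size and the deepest library, P13, as well as level, so mural-like cells hold 52.0% of Col1a2 over all PDOXs and 21.0% without P13.

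The PDOXs were compared with Nu-NB within each class, which asks whether a cell type held more or less of a matrix gene in a tumor than in the normal brain. With 1 brain the spread comes from the PDOXs alone, and P8 is the only PDOX sorted as the brain was, so the sort and the condition cannot be told apart for the other 6. In 95 tests of members over 6 classes edgeR called 0 (0% of all genes in each class, in either direction), 8 (8.42%) had an unadjusted p under 0.05, against 13.2% of all genes, and DESeq2 called 2. Values are therefore given for members with at least 30 UMIs in a class, all PDOXs on the same side of Nu-NB and a mean at least 4-fold away. A permutation of 7 PDOXs against 1 brain cannot give a one-sided exact p below 0.125.

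In myeloid-like cells 3 of 19 members met this rule upward (3.84% of all genes), Fn1, Postn and Mgp, and 0 met it downward (2.13%). Fn1 had 0 UMIs in 414160 myeloid UMIs of Nu-NB, which allows up to 7.24 CPM, and a mean of 420.0 ± 279 CPM (SD, n = 7) in the PDOXs, at least 58.0-fold higher. In edgeR its adjusted p was 0.12, and in DESeq2 0.00069. The same-sorted pair had 750.3 CPM in P8 against 0 UMIs in Nu-NB. Barcodes with under 200 detected genes had 5.01 CPM of Fn1 in Nu-NB and 203 CPM in P8.

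Postn was 9.66 CPM (4 UMIs) in the myeloid-like cells of Nu-NB and 176 ± 231 CPM in the PDOXs, 18.3-fold higher (adjusted p = 0.43). Without P8 the Postn mean was 95.1 ± 93.7 CPM (n = 6), 9.85-fold higher. Mgp was 2.41 CPM in Nu-NB on 1 UMI and 43.9 ± 55.8 CPM in the PDOXs, a ratio of 18.2 with a counting interval of 3.26 to 718 (adjusted p = 0.48). Without P3 the ratio was 9.71. Barcodes with under 200 detected genes held Mgp at 25.0 CPM in Nu-NB and at 66.8 to 316 CPM in the PDOXs other than P13, above the myeloid level of each of these libraries, so the myeloid Mgp values are not above this background. In myeloid-like cells of the PDOXs the summed endothelial markers were 381 CPM and the summed mural markers 313 CPM at the median, against 31.4 and 50.7 CPM in Nu-NB. Choroid plexus markers summed to a median of 2842 CPM (364 to 6258 CPM) in these cells against 179 CPM in Nu-NB, and erythrocyte markers to 27.0 CPM against 3281 CPM. Their part in these differences was not tested.

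In endothelial-like cells 2 of 18 members met the rule upward (0.717% of all genes), Sparc and Fn1, and 0 met it downward (6.37%). Sparc was 1108 CPM (18 UMIs) in Nu-NB and 6026 ± 2702 CPM in the PDOXs, 5.44-fold higher, with all 7 PDOXs above Nu-NB. The log2 difference was 3.17 ± 0.86 in edgeR (adjusted p = 0.30) and 3.22 in DESeq2 (adjusted p = 0.0015). Fn1 was 61.5 CPM on 1 UMI in Nu-NB and 523 ± 267 CPM in the PDOXs, a ratio of 8.50 with a counting interval of 1.53 to 336 (adjusted p = 0.32). P8 had 3638 CPM of Sparc and 271 CPM of Fn1. Fn1 in barcodes with under 200 detected genes was 5.01 CPM in Nu-NB and 22.0 to 494 CPM in 6 PDOXs, and in T233 it was above the endothelial level of 253 CPM (23 UMIs). Sparc in such barcodes was 2428 CPM in Nu-NB, above its endothelial level there, and 1076 to 4067 CPM in the 6 PDOXs, below it in each. Endothelial-like cells of the PDOXs also carried fibroblast markers at a summed median of 595 CPM (253 to 1581) against 185 CPM in Nu-NB, and choroid plexus markers at 831 CPM (385 to 1726) against 369 CPM. The part of free RNA and of other cells in both differences was not tested.

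In mural-like cells 1 of 22 members met the rule upward (0.698% of all genes) and 2 of 22 downward (8.18%), and Nu-NB had 15 such cells. Bgn was 118 CPM on 1 UMI in Nu-NB and 487 ± 229 CPM in the PDOXs, with a counting interval of the ratio of 0.739 to 163, which includes 1. Timp3 was 2722 CPM (23 UMIs) in Nu-NB and 632 ± 471 CPM in the PDOXs (log2 difference -2.05 ± 0.70, adjusted p = 0.33). Htra1 was 355 CPM on 3 UMIs in Nu-NB and 74.3 ± 55.8 CPM in the PDOXs, and was under the filter of the test. Astrocyte markers summed to 8048 CPM in the mural-like cells of Nu-NB and to 638 to 3457 CPM in those of the PDOXs, and their part in the Timp3 and Htra1 values, both called higher in astrocyte-like cells, was not tested. In the classes with fewer PDOXs, Postn met the rule upward in astrocyte-like cells (1 of 15 members, 2.02% of all genes, 6 PDOXs), and 0 met it downward (0.948%). It had 0 UMIs in Nu-NB and 5.17 to 58.3 CPM in the PDOXs, at least 4.70-fold higher against the 3-UMI limit of Nu-NB (adjusted p = 0.44). In P8, T101, T192 and T233 barcodes with under 200 detected genes held Postn above the astrocyte level, at 28.3 to 674 CPM, so most of these values are not above that background. Col5a2 met it downward in choroid plexus-like cells (1 of 22 members, 3.84% of all genes, with 0 upward, 1.19%) on 1 UMI in Nu-NB, with a counting interval of the ratio of 0.0430 to 9.47 that includes 1. In fibroblast-like cells 0 of 17 members met it in either direction (3.82% of all genes upward and 1.27% downward).

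P3TMZ, from a mouse given the alkylating drug temozolomide, was set beside the vehicle-treated P3, with 1 sample on either side and therefore no test. In endothelial-like cells Sparc was 11040.2 CPM in P3 (exact 95% Poisson interval 10592 to 11502) and 6832 CPM in P3TMZ (6376 to 7311). Serpinh1 was 531 and 212 CPM, and Timp3 270.3 and 523 CPM in the same order. Sparcl1 was 1598 CPM in P3 and 2255 CPM in P3TMZ. The Sparc and Serpinh1 values were lower and the Timp3 and Sparcl1 values higher in P3TMZ, with intervals that did not overlap. In mural-like cells Mgp was 11839.8 CPM in P3 and 8381 CPM in P3TMZ, Sparcl1 3332 and 8319 CPM, and Sparc 4750.1 and 2483 CPM. The class had another makeup in the 2 libraries, with 3 smooth muscle-like cells of 24 in P3 and 12 of 27 in P3TMZ. In the remaining mural-like cells Mgp was 12826 CPM in P3 and 12634 CPM in P3TMZ, and Sparcl1 2458 and 2457 CPM, with overlapping intervals for both genes. In myeloid-like cells Sparc was 3958 CPM in P3 and 3446 CPM in P3TMZ, Sparcl1 213 and 58.7 CPM, and Mgp 167 and 1.51 CPM, all lower in P3TMZ. Timp2 was higher there, at 347 CPM in P3 and 521 CPM in P3TMZ. Barcodes with under 200 detected genes held Mgp at 316 CPM in P3 and 313 CPM in P3TMZ, and Sparcl1 at 883 and 1065 CPM. Both genes were thus above their myeloid levels there, and the part of free RNA was not tested. Myeloid-like cells had a median of 513 UMIs in P3 and 913 in P3TMZ. Mgp in choroid plexus-like cells was 238 CPM in P3 and had 0 UMIs in P3TMZ, which the interval puts at up to 91.8 CPM. Among genes with at least 30 UMIs in these 2 libraries, the intervals were apart for 4 of 8 members in endothelial-like cells (12.6% of all such genes), 3 of 5 in mural-like (26.6%), 1 of 6 in choroid plexus-like (9.25%) and 4 of 6 in myeloid-like cells (8.24%). Members with more UMIs have narrower intervals, which come apart more readily, and the intervals cover counting error only, so differences between mice are not in them.

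Other matrix genes of the same kinds, 89 in a second list, were looked up in the same fit. Of the 63 tested, 62 were called in at least 1 class, against 57.2% of all genes, and since the filter on low counts acts on this list in the same way, neither this count nor those by group below carries weight. Among the other collagens 6 of 6 tested were called, and Col23a1 (4.87) and Col14a1 (4.42) had the largest log2 differences, both in fibroblast-like cells, with Col5a3 in mural-like (4.02) and Col8a1 in choroid plexus-like cells (3.71). Of the proteoglycans and hyaluronan genes, 8 of 8 were called. The largest log2 differences were those of the hyaluronan link protein Hapln1 (6.52) in astrocyte-like and Spock2 (5.14) in endothelial-like cells. Brevican, Bcan (4.64), in astrocyte-like and versican, Vcan (4.32), in OPC-like cells came next.

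Of the other glycoproteins and elastic fibre genes, 19 of 19 were called, with Smoc2 (6.92) and Fbln5 (4.84) in fibroblast-like cells, tenascin-R, Tnr (4.98), in OPC-like cells and osteopontin, Spp1 (4.74), in myeloid-like cells. Of the other proteases and inhibitors, 19 of 19 were called, with cathepsin K, Ctsk (5.97), and the procollagen proteinase enhancer Pcolce (5.62) in fibroblast-like cells, the macrophage elastase Mmp12 (4.90) in myeloid-like cells and Timp4 (4.82) in astrocyte-like cells. Of the collagen enzymes and chaperones 10 of 11 were called, with the collagen receptor Mrc2 (5.52) in fibroblast-like cells and Fkbp10 (2.83), Tgm2 (2.46) and Crtap (2.26) in endothelial-like cells. By class this group had 6 calls in myeloid-like, 4 in endothelial-like, 4 in mural-like, 3 in astrocyte-like and 1 in fibroblast-like cells. Between the PDOXs and Nu-NB, edgeR called 0 of 143 tests of this list, and 32 (22.4%) had an unadjusted p under 0.05, against 13.2% of all genes.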

How the data were processed

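Mouse cells of 7 untreated PDOXs, 1 temozolomide-treated PDOX and 1 normal nude brain were profiled by Drop-seq, 1 library each. The deposited values are raw UMI counts per gene and cell barcode, which the authors made by mapping reads to human and mouse genomes and keeping mouse barcodes. The submitters' processing notes name bcl2fastq 2.0, STAR and the mouse build GRCm38 (mm10). Totals ran from 1294068 (P3) to 8410580 (P13) UMIs per table, and small classes have few UMIs, so counting error is large there. The tables of Nu-NB and P8 use older symbols, and 1364 symbols were renamed. Levels (CPM) are scaled to 1000000 UMIs on the 12949 symbols listed in every table.

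Barcodes entered with 200 or more detected genes and a mitochondrial share of 30% or less, a gene had to be seen in 5 cells, and the 5% of cells per library with the highest doublet scores were left out. Cells were clustered with scanpy 1.11.5 and leidenalg 0.10.2 (2000 variable genes, 30 components, resolution 1), without the 36 genes, the other matrix genes and mitochondrial genes. A cluster was named where its marker score was at least 2.5 (log2) over the median cluster, with 3 markers up 2-fold, and mixed or unnamed clusters were clustered again. This naming rule was revised with the clusters in view. No deposited annotation of cells was used.

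UMIs were summed per sample and class of at least 10 cells. Classes were compared over the 7 PDOXs with the sample as a block in edgeR 4.0.16 (quasi-likelihood, TMM, R 4.3.3), and PDOXs with Nu-NB within a class, both with Benjamini-Hochberg adjustment over all genes tested. Calls needed an FDR of at most 0.01 and a log2 difference of at least 1. The SE of an edgeR log2 difference was taken as its size divided by the square root of the F statistic, and was not fitted directly. DESeq2 1.42.0, other filters, clusterings and cell minimums, and leaving out each PDOX were tried. P-values measure the spread between libraries. The code was tested on simulated counts.

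The 36 genes and the lists were chosen with earlier results of these data known. Values by sample are printed for up to 4 members per class of highest level with at least 100 UMIs, and for members 4-fold apart from Nu-NB. Col3a1, Dcn, Lum, Bgn, Fbln2, Eln, Lox and Loxl2, the 3 promoters and the members called in a class were chosen for the text after their values were seen. Protein sequences were not used here.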

Additional observations from a re-analysis of the deposited data

Results flagged for a closer look

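In 4 of the 21 gene and class series tested, 1 PDOX stood apart from the others by more than the 95% critical value of Dixon's test, which chance exceeds in about 1 in 20. Postn in the myeloid-like cells of P8 was at 664 CPM, with the next PDOX at 276 CPM. Mgp in the myeloid-like cells of P3 was at 167 CPM, with the next at 47.3 CPM. The barcodes of P3 with under 200 detected genes held Mgp at 316 CPM, the highest such value of the 9 libraries. P3TMZ was close, with 313 CPM in such barcodes, but had 1.51 CPM of Mgp in its myeloid-like cells. Fbn1 in the OPC-like cells of P13 was at 90.2 CPM on 2 UMIs, with the next at 31.9 CPM. Timp2 in the choroid plexus-like cells of T233 was at 526 CPM, with the next at 401 CPM.

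In T101 and P13, cells that no marker list named, which enter no comparison, differed from the unnamed cells of Nu-NB in both directions. Postn was at 3573 CPM in the 689 unnamed cells of T101 (1174 UMIs) and at 1277 CPM in the 106 unnamed cells of P13 (259 UMIs), against 38.1 CPM in Nu-NB. Dcn was at 304 CPM in the unnamed cells of T101 (100 UMIs), against 12.7 CPM in Nu-NB. In P13, 88 of the unnamed cells lay in 1 cluster, with Dcn at 416 CPM (78 UMIs). Lower in T101 and P13 than in Nu-NB were Sparcl1 (435 and 1188 against 8082 CPM), Timp3 (125 and 128 against 2249 CPM), Vtn (9.13 and 69.0 against 1106 CPM) and Fbln2 (0 and 34.5 against 610.0 CPM). Like cells are not compared here: the 91 unnamed cells of Nu-NB all lay in a cluster that held none of the unnamed cells of T101 and 6 of those of P13. The 67 unnamed cells of P8 lay in that cluster too. They had Sparcl1 at 8549, Timp3 at 1806, Vtn at 1073, Fbln2 at 519, Postn at 286 and Dcn at 0 CPM. In T101 most of the unnamed cells (644) belonged to another cluster, which held 0 cells of Nu-NB and 0 of P8. Its leading genes included Cnot2, Rab3ip, Cand1, Frs2 and Egfr and several gene models with Gm numbers. Gm-numbered symbols made up a median of 24.4% of the UMIs of unnamed cells over the PDOXs (0.595% to 30.4%), against 5.05% (0.547% to 8.52%) in named classes. In named classes the share was 0.547% to 0.737% in P8, 0.773% to 1.23% in Nu-NB and 2.80% to 8.52% in the other untreated PDOXs. What the unnamed cells are, and whether their reads come from mouse or human cells, was not tested.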

How the results depend on the processing

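The total of 57 gene and class pairs ran from 48 to 63 under the alternatives, and 35 of the 57 were called in every alternative that gave a value. Of 776 values of these pairs under an alternative, 729 passed the thresholds and 0 changed direction. With DESeq2 9 of the 57 pairs were lost, and with cells of at least 500 genes 7, so some pairs printed as called rest on the main settings. The mural count of 18 ran from 10 (without P13) to 20 when a PDOX was left out, and the fibroblast count of 18 from 13 (without P8) to 19. The choroid plexus count of 4 was 2 with DESeq2, 2 with the matrix genes in the clustering and 2 with cells of at least 500 genes, and ran from 2 to 5 when a PDOX was left out. The OPC count of 1 (Fbn1) was 0 with DESeq2, 0 with the matrix genes in the clustering, 0 with cells of at least 500 genes, 0 with no doublets left out and 2 with no filter on low counts, and ran from 0 to 2 when a PDOX was left out. Against Nu-NB, 0 calls became 2 with DESeq2 (Sparc in endothelial-like and Fn1 in myeloid-like cells), and were 0 under the other alternatives, which says nothing about stability, since few differences can pass with 1 brain. The adjusted p of Fn1 in myeloid-like cells ran from 0.00069 with DESeq2 to 0.20 with no filter on low counts. Shares of UMIs by class, and the Postn and Mgp folds in myeloid-like cells, were also computed without single PDOXs, a choice made after seeing the data. The cause of these shifts was not tested. The class of highest level was another in at least 1 alternative for 17 of the 36 genes, and the same for 24 of 36 with cells of at least 500 genes. The small sums of mural-like cells in T101, T233 and Nu-NB limit what can be seen there. No paired analysis was possible because PDOXs and Nu-NB share only 1 replicate number, given in accession order. All classes of a PDOX were compared within that PDOX.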
